A study of Mus musculus with 3 samples.

Results

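The differences that remained between *Enl*-T1 kidneys exposed to TDI-11055 and wild type kidneys were measured in 2 single-cell RNA sequencing libraries of mouse embryonic kidney. The *Enl*-WT library and the *Enl*-T1 TDI-11055 library were compared over cells in which 1000 to 6000 genes were detected and mitochondrial genes took 1% to 10% of UMIs, which were 7202 cells (5187 and 2015) of the 11226 such cells in the series. Unique molecular identifiers (UMIs, each standing for 1 captured transcript) were summed per library and given as CPM, each gene's share of its library's UMIs scaled to the same total in every library. Of 32285 genes, the 4021 with at least 50 CPM in 1 of these 2 libraries were compared.

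All kidneys were collected at E15.5 (embryonic days after mating). *Enl*-WT embryos carried unmodified *Enl* and came from mothers labelled as not treated. *Enl*-T1 embryos carried the conditional T1 allele of *Enl* (*Enl* flox-T1/+), which Cre recombinase switches on. Daily oral doses of TDI-11055 at 100 mg/kg were given to pregnant mice between E10.5 and E14.5 for the treated group. Cre was driven by *Wt1* in all groups, the wild type included, through a *Wt1* GFPCre knock-in that replaces 1 working copy of *Wt1*, so the T1 allele is active in *Wt1*-expressing cells and their progeny in nephron and stroma. Each group was 1 pooled library of cells from the kidneys of more than 1 embryo, and cells were not assigned to embryos here. No *Enl*-WT library with TDI-11055 was analysed here, so effects of genotype, of the compound and of dosing cannot be told apart, and the protocol names a vehicle arm that the label of the *Enl*-WT library does not. The third library, *Enl*-T1 without treatment, is given beside the results for scale, and the libraries are called wild type, untreated mutant and treated mutant below. Its ratio shares the *Enl*-WT library with the ratio reported here.

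ENL, encoded by *Mllt1*, is a chromatin reader that binds acetylated histones and helps to recruit factors for transcriptional elongation. The T1 mutation is an alteration found in Wilms tumour, a kidney cancer of childhood, and TDI-11055 occupies the acyl-binding pocket of ENL. During nephrogenesis, self-renewing progenitors marked by *Six2* and *Cited1* commit to an epithelial fate and form podocytes, proximal tubule, loop of Henle and distal tubule, while the ureteric epithelium branches and a *Foxd1*-marked stroma surrounds both. Genes of the *Hox* clusters set positional identity and are well known targets of ENL and its partners.

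The libraries differed in more than their labels. Kept cells were 72.2% of the barcodes in wild type and 31.2% in the treated mutant, with a median of 5099 and 19824 UMIs a cell and a total of 31824620 and 38574194 UMIs. The upper limit of 6000 genes removed 55 barcodes from the former and 574 from the latter. Ribosomal protein genes took 15.8% of UMIs in wild type and 26.0% in the treated mutant, and mitochondrial genes 5.95% and 4.13%. Cells in which *Xist* but no Y-linked transcript was detected were 26.5% against 45.3%, so the mix of sexes among the pooled embryos differed as well. The 2 libraries shared 6 cell barcodes. Summed markers of nephron, stroma, ureteric epithelium and endothelium were highest in the cells given that name. The same markers named the clusters, so this describes the naming and is not a check of it. Ureteric epithelium markers summed to 6257 and 5937 CPM in those cells, and nephron markers to 3935 and 1434 CPM in nephron cells. In the untreated mutant, nephron markers summed to 1074 CPM in nephron cells and 992 in ureteric epithelium cells. *Mllt1* (chromosome 17, 56892611 to 56935415 in GRCm38, the build called mm10) stood at 25.1 CPM in wild type, 17.1 in the untreated mutant and 19.3 in the treated mutant, a count that does not tell the alleles apart. With 1 library per group there was no test between conditions, and the 95% intervals given reflect counting error alone. A gene was counted as different when its CPM ratio, *Enl*-T1 TDI-11055 over *Enl*-WT, reached 2-fold in either direction. A gene that passed the minimum of 50 CPM in 1 library alone was, by that rule, higher in that library.

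Genes of podocytes and proximal tubule were far lower in treated *Enl*-T1 kidneys than in wild type, and *Hoxa* genes and the host genes of small nucleolar RNAs were higher. At least 2-fold higher were 109 of 4021 genes (2.71%), and at least 2-fold lower were 537 (13.4%). With median-of-ratios scaling the counts were 162 higher and 251 lower, and with mitochondrial, ribosomal protein and haemoglobin genes left out of the total they were 152 and 393. The median log2 ratio over all genes was −0.24, which is the level against which the lists below should be read. Leaving aside sex-linked, haemoglobin, ribosomal protein and mitochondrial genes, the 12 lowest ratios included those of *Ren1*, *R3hdml*, *Thsd7a*, *Fut9*, *Podxl*, *Lrp2*, *Magi2*, *Slc12a1*, *Fxyd2* and *Enpep*, which ran from −5.70 to −2.86 on the log2 scale. The 12 highest included those of *Pam16*, *Gm10076*, *Snhg16*, *5430416N02Rik*, *Snhg15*, *Gm43305*, *Hspa1a*, *Hoxb5os*, *Hoxa11os*, *Gapdh* and *Ndufb1-ps*, from 7.80 to 1.90. *Thsd7a*, an antigen of podocytes, was at 110 CPM in wild type, 9.75 in the untreated mutant and 4.54 in the treated mutant. *R3hdml* was at 55.3, 0 and 1.22 CPM, and *Fut9*, a fucosyltransferase, at 50.5, 7.04 and 2.70 CPM. Just outside these sets were *Nes* at −2.59 and *Atp5k* at 1.87.

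**Figure D1:**
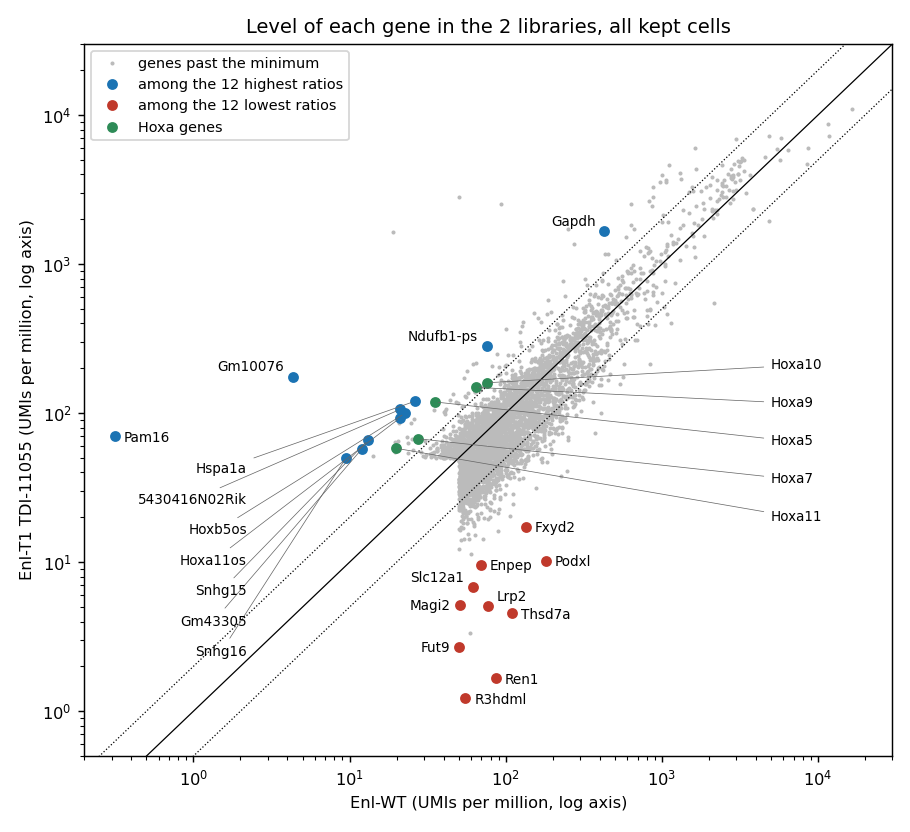
Level of each of 4021 genes in *Enl*-WT (x axis) and *Enl*-T1 TDI-11055 (y axis), in CPM on log axes, with 1 library per group. The solid line marks equal levels and the dotted lines 2-fold; the named genes among the lowest ratios (red) lie under the lower dotted line, from *Fxyd2* at 17.3 CPM to *R3hdml* at 1.22 CPM, and the 5 *Hoxa* genes (green) lie above the upper dotted line.

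Podocyte genes were lower in the treated mutant than in wild type. Podocytes are the filtering cells of the glomerulus. *Podxl* (chromosome 6, 31519488 to 31563981), which encodes the surface sialomucin of podocyte foot processes, stood at 181 CPM in wild type, 7.13 in the untreated mutant and 10.2 in the treated mutant, a ratio of 0.0566 (0.0510 to 0.0627) to wild type. *Magi2*, a scaffold protein of the slit diaphragm, was at 50.8, 6.19 and 5.16 CPM. For *Podxl* and *Magi2* both mutant libraries lay far under wild type. Of 16 podocyte genes listed, 10 passed the minimum, 9 of them at least 2-fold lower and none higher, with a median log2 ratio of −1.31 (the untreated mutant, −1.37). Over all genes 13.4% were lower to that degree. With at least 50 CPM in both libraries 3 podocyte genes passed and all 3 were lower. The slit diaphragm gene *Nphs1* was among the 6 that stayed under the minimum in both libraries. With median-of-ratios scaling 5 of 10 were 2-fold lower, against genes of like length 4 of 10, and among cells with *Xist* and without Y-linked transcripts 5 of 8. In bulk sums of this kind, fewer cells of a type and less RNA in each cannot be told apart. Within nephron cells 15 podocyte genes passed and 13 were lower, with a median of −2.65. Of all 3956 genes past the minimum there, 17.1% were lower. *Wt1*, on the same list, was at 104, 40.0 and 37.1 CPM. *Cdkn1c*, an imprinted cell cycle inhibitor with high levels in podocytes, was at 2165, 704 and 545 CPM over all cells. Within nephron cells it was at 4210, 309 and 707 CPM, whereas within stroma cells it was at 2452, 2095 and 2300 CPM.

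Genes of the proximal tubule were lower as well, and those of distal segments were lower within nephron cells. *Lrp2*, the endocytic receptor megalin, was at 76.6 CPM in wild type, 2.68 in the untreated mutant and 5.06 in the treated mutant. *Fxyd2*, a regulatory subunit of the sodium pump, was at 135, 10.7 and 17.3 CPM. Of 16 proximal tubule genes 3 passed the minimum, all at least 2-fold lower, with a median log2 ratio of −3.92 (−4.83 in the untreated mutant). Within nephron cells 6 passed and all 6 were lower, with a median of −3.89. *Slc12a1*, the salt transporter of the loop of Henle, was at 61.8, 2.06 and 6.77 CPM, a ratio of 0.110 (0.0959 to 0.125). Over all cells the other 6 distal tubule and loop genes past the minimum, of 16 listed, were within 2-fold, from *Sim1* at −0.70 to *Wfdc2* at 0.53 on the log2 scale. Their median with *Slc12a1* was −0.61, and 0.06 once each gene was compared with genes of like length. In the untreated mutant the median was −1.26. Within nephron cells, however, 6 of 7 were at least 2-fold lower in the treated mutant, with a median of −1.18 (−2.31 in the untreated mutant). The share lower over all genes within nephron cells was 17.1%. With a minimum of 10 CPM, 4 of 11 were lower over all cells.

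Cells that held genes of each list were also counted, a count chosen after the values were seen. Each nephron cell was thinned to 2000 UMIs, and cells with a UMI for at least 3 genes of a list were counted. By this count 19.7% (18 to 21.5) of 2091 nephron cells in wild type held podocyte genes, against 8.27% (6.38 to 10.49) of 738 in the treated mutant and 7.22% (5.82 to 8.84) of 1191 in the untreated mutant. The same count in stroma cells, which share some of these genes, was 5.73% in wild type and 3.91% (1.59 to 7.89) in the treated mutant, so the interval of the treated stroma overlapped that of the treated nephron. In endothelial cells it was 9.64% (6.875 to 13.04) of 384 in wild type and 0.971% (0.0246 to 5.29) of 103 in the treated mutant. The count was thus not confined to nephron cells. For proximal tubule genes the share was 10.6% (9.28 to 12) in wild type, 1.49% (0.746 to 2.65) in the treated mutant and 0.588% (0.237 to 1.21) in the untreated mutant. For distal tubule and loop genes it was 19.9% (18.2 to 21.7), 12.2% (9.92 to 14.8) and 4.20% (3.13 to 5.50) in the same order. Before thinning the podocyte share was 49.4% in wild type and 78.3% in the treated mutant, the proximal tubule share 14.2% and 7.95%, and the distal share 31.8% and 25.7%. The podocyte order thus turned with the deeper cells of the treated library. Thinning left out 32 wild type and 4 treated mutant nephron cells.

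**Figure D2:**
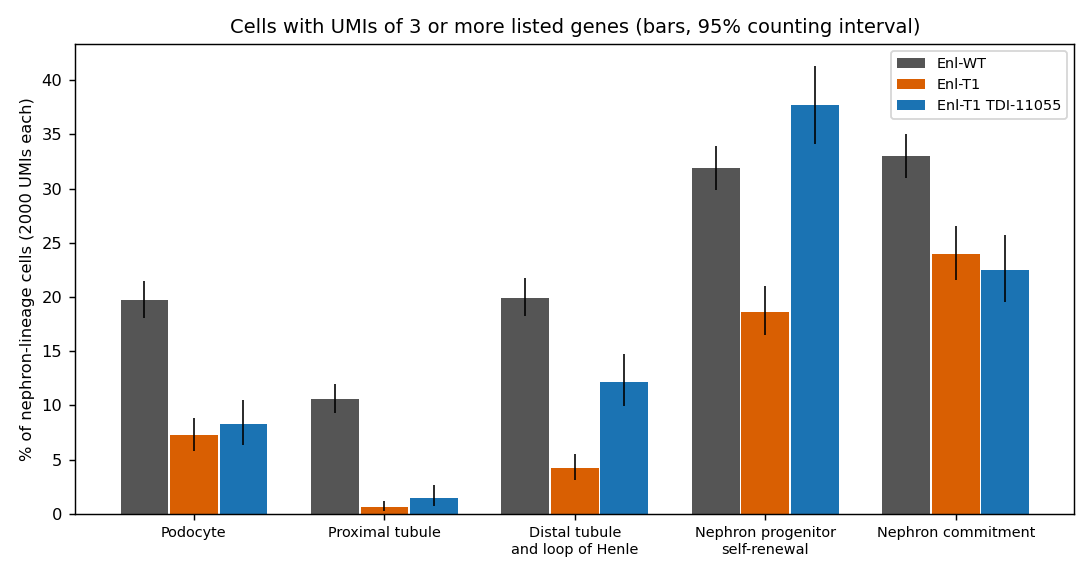
Percentage of nephron cells, each thinned to 2000 UMIs, with UMIs for 3 or more genes of each list, by library; bars show the share and error bars its exact 95% binomial interval, which covers counting error only. Treated *Enl*-T1 cells stood under wild type for podocyte (8.27% against 19.7%), proximal tubule (1.49% against 10.6%) and distal tubule genes (12.2% against 19.9%), and at 37.7% against 31.9% for self-renewal genes.

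The self-renewal genes of progenitors past the minimum, in contrast, lay within 2-fold of wild type over all cells. *Cited1*, a marker of uninduced progenitors, was at 60.3 CPM in wild type, 18.5 in the untreated mutant and 64.4 in the treated mutant. *Crym* was at 43.5, 17.3 and 51.8 CPM, and *Hmga2*, a chromatin factor of fetal growth, at 225, 137 and 252 CPM. For these genes the treated library was near wild type and the untreated mutant library was lower. None of the 6 self-renewal genes past the minimum, of 17 listed, reached 2-fold in either direction, and their median log2 ratio was 0.03 (−1.03 in the untreated mutant). *Spock2* at −0.92 and *Sall1* at −0.66 were the lowest. Within nephron cells 10 passed, 1 was at least 2-fold higher and none lower, with a median of 0.48 (−0.28 in the untreated mutant). The median of all genes there was −0.30, with 2.91% at least 2-fold higher and 17.1% lower. The thinned share of nephron cells with self-renewal genes was 37.7% (34.2 to 41.3) in the treated mutant, 31.9% (29.9 to 33.9) in wild type and 18.6% (16.5 to 21) in the untreated mutant. Before thinning it was 88.3%, 60.3% and 78.5%.

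Genes of commitment were divided. *Lhx1* and *Pax8*, transcription factors of the first nephron epithelia, were at 71.5 and 73.8 CPM in the treated library against 76.8 and 78.6 in wild type. *Cdh6*, a cadherin of the early proximal segment, was at 89.1 CPM in wild type, 42.7 in the untreated mutant and 21.4 in the treated mutant. *Jag1*, the Notch ligand that drives proximal fates, was at 100 CPM in wild type, 31.1 in the untreated mutant and 43.8 in the treated mutant. Together with *Cdh4* these were the 3 of 8 commitment genes at least 2-fold lower (16 listed, median −0.45). Over all genes 13.4% were lower. With at least 50 CPM in both libraries none of 5 commitment genes was 2-fold lower. With median-of-ratios scaling 1 of 8 was 2-fold lower, and against genes of like length 1 of 8. The thinned share of nephron cells with commitment genes was 33.0% (31.0 to 35.1) in wild type and 22.5% (19.5 to 25.7) in the treated mutant. Before thinning it was 61.2% and 83.8%.

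Among *Hox* genes the *Hoxa* cluster was higher. All 5 *Hoxa* genes past the minimum were at least 2-fold higher in the treated library. *Hoxa5* (chromosome 6, 52201754 to 52204587) was at 35.1 CPM in wild type, 119 in the untreated mutant and 119 in the treated mutant, a ratio of 3.39 (3.17 to 3.62) to wild type. *Hoxa11* (52242106 to 52245810) was at 19.7, 59.7 and 58.2 CPM, with a ratio of 2.96 (2.71 to 3.24). *Hoxa7*, *Hoxa9* and *Hoxa10*, which lie between them, had ratios of 2.47, 2.33 and 2.09. Both mutant libraries exceeded wild type for each of these 5 genes. Of 6 antisense and non-coding transcripts of the clusters, 2 passed the minimum, and both were higher. Both passed through the treated library alone, so this direction too was set by the minimum. *Hoxa11os*, on the strand opposite to *Hoxa11* (52244393 to 52249799), was at 21.2, 93.2 and 93.4 CPM and *Hoxb5os* at 22.7, 76.1 and 99.9 CPM, each 4.41-fold above wild type. *Hoxa11os* overlaps *Hoxa11* in position on the opposite strand, and whether strand was used in counting is not given in the sources used here.

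The other clusters stood apart from *Hoxa*. Of 39 *Hox* genes, 18 passed the minimum, and 6 were at least 2-fold higher (*Hoxa5*, *Hoxa7*, *Hoxa9*, *Hoxa10*, *Hoxa11* and *Hoxb2*) and none lower, with a median log2 ratio of 0.30. Over all genes 2.71% were higher to that degree. With at least 50 CPM in both libraries, 3 of 14 *Hox* genes were 2-fold higher and none lower. *Hoxb2* was at 76.1 CPM in wild type, 70.7 in the untreated mutant and 158 in the treated mutant, so the treated library alone was high. *Hoxc10* was at 64.2, 249 and 97.6 CPM, 1.52-fold (1.44 to 1.6) above wild type after treatment. *Hoxd11*, 64.2% of whose 3′ end is found in another gene, was at 88.7, 182 and 100 CPM. The medians were 1.30 for 5 *Hoxa*, 0.16 for 8 *Hoxb* and −0.01 for 4 *Hoxd* genes, where the untreated mutant gave 1.14, −0.11 and 0.07.

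The *Hoxa* genes were higher within nephron and within stroma, and none passed the minimum within the ureteric epithelium. Cells of each library were clustered and assigned to lineages by marker genes, and UMIs were summed within each lineage. In nephron cells *Hoxa5* was at 51.9 CPM in wild type, 219 in the untreated mutant and 245 in the treated mutant, a ratio of 4.72 (4.35 to 5.13). In stroma cells it was at 53.4, 165 and 230 CPM, a ratio of 4.31 (3.70 to 5.03). In endothelial cells it was at 56.7, 55.4 and 34.2 CPM, a ratio of 0.604 (0.441 to 0.818), and in the ureteric epithelium it did not exceed 8.42 CPM in any library. *Hoxa9* gave ratios of 2.71 (2.55 to 2.87) in nephron, 4.25 (3.70 to 4.91) in stroma and 1.10 (0.829 to 1.46) in endothelium. *Hoxa10* gave 2.39 (2.26 to 2.53), 3.53 (3.18 to 3.93) and 1.09 (0.735 to 1.62). 6 *Hoxa* genes, *Hoxa3* included, passed the minimum in nephron and in stroma, and all 6 were at least 2-fold higher in both. The cells that made up a lineage differed between libraries. Of 179 treated stroma cells 141 were in a cluster led by *Col1a1*, with *Foxd1*, and 21 in a cluster led by *Nts*, with *Penk*. Of 877 wild type stroma cells 248 were in a cluster led by *Penk*, with *Nts*. What this contributed to ratios within lineages was not tested.

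*Hox* genes outside the *Hoxa* cluster behaved differently by lineage. *Hoxb9* was 2.94-fold (2.81 to 3.08) above wild type in nephron cells, at 523 against 178 CPM, and 0.579-fold (0.555 to 0.604) in the ureteric epithelium, at 226 against 391 CPM. Over all cells its ratio was 1.42. *Hoxc9*, which did not pass the minimum over all cells, was at 64.9 CPM in wild type, 206 in the untreated mutant and 89.3 in the treated mutant within the nephron. *Hoxc8* was at 68.4, 225 and 89.4 CPM there. In the nephron the treated levels of *Hoxc8*, *Hoxc9* and *Hoxc10* were 1.31, 1.38 and 1.75 times wild type, under the 2-fold limit. *Hoxc11* was at 8.90, 57.1 and 59.7 CPM in stroma, a ratio of 6.71 (4.69 to 9.83). Over the nephron, 8 of 21 *Hox* genes were at least 2-fold higher and none lower, where 2.91% of 3956 genes were higher and 17.1% lower. Over the stroma it was 9 of 15 and none lower, where 2.92% of 3978 genes were higher and 11.6% lower. Over the ureteric epithelium none of 12 was higher and *Hoxd3* was lower (2.36% of 4108 genes higher and 11.6% lower). Over the endothelium none of 4 was higher and *Hoxb4* was lower (2.77% of 3824 genes higher and 19.7% lower).

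Renin had the lowest ratio of all genes. *Ren1* (chromosome 1, 133350510 to 133360325), which encodes renin and marks juxtaglomerular precursors, was at 86.2 CPM in wild type, 12.3 in the untreated mutant and 1.66 in the treated mutant, a ratio of 0.0193 (0.0148 to 0.0247). Within stroma cells it was at 617, 37.6 and 12.7 CPM. At 2000 UMIs a cell, 6.32% (4.78 to 8.16) of 855 wild type stroma cells held a *Ren1* UMI, 0.789% (0.394 to 1.41) of 1395 in the untreated mutant and 2.23% (0.612 to 5.62) of 179 in the treated mutant (9.35%, 1.14% and 3.35% before thinning). In lineages that should lack renin, 1.03% (0.609 to 1.62) of 1756 ureteric epithelium cells and 0.191% (0.0521 to 0.489) of 2091 nephron cells held one in wild type. In the untreated mutant it was 0.0870% (0.00220 to 0.484) of 1150 and 0.0840% (0.00213 to 0.467) of 1191, and in the treated mutant 0.113% (0.00285 to 0.627) of 887 and 0 of 738 (up to 0.407% by the limit that a count of 0 allows).

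Genes of stroma and endothelium were lower over all cells, and less so within their own cells. Stroma cells were 16.9% (15.9 to 18) of kept cells in wild type, 34.7% in the untreated mutant and 8.88% (7.68 to 10.2) in the treated mutant. In the treated library a further 51 cells (2.53%) of low UMI count stayed without a lineage name. Their leading genes included *Mgp*, *Aldh1a2* and *Crabp1*, which also led the main stroma cluster of that library, so the stroma share leaves out cells that resemble stroma. Of 22 stroma genes listed, 10 passed the minimum over all cells and 6 were at least 2-fold lower, among them the collagen genes *Col1a1*, *Col1a2* and *Col3a1*, with a median of −1.41. Within stroma cells 21 genes passed and 7 were lower, with a median of −0.66. The share lower over all genes was 13.4% over all cells and 11.6% within stroma cells. *Foxd1*, the transcription factor of stromal progenitors, was at 258 CPM in wild type, 174 in the untreated mutant and 311 in the treated mutant within stroma cells, and *Acta2*, the actin of smooth muscle, was at 464, 182 and 223 CPM. Endothelial cells were 7.60% (6.89 to 8.35) in wild type and 5.11% (4.19 to 6.17) in the treated mutant. Within endothelial cells 19.7% of all genes were lower. The endothelial list had 5 of 8 genes lower over all cells (median −1.74) and 1 of 15 within endothelial cells (median −0.32). That gene was *Flt1*, a receptor of vascular endothelial growth factor, at 763, 429 and 308 CPM within endothelial cells. What dissociation and the filters contributed to these shares was not tested.

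The ureteric epithelium was 34.4% (33.1 to 35.7) of kept cells in wild type, 28.7% in the untreated mutant and 44.3% (42.1 to 46.5) in the treated mutant. *Wnt11*, a signal secreted by the branching tip, was at 62.0 CPM in wild type, 31.7 in the untreated mutant and 116 in the treated mutant within these cells. The treated library was the highest and the untreated mutant library the lowest. *Tfcp2l1*, a transcription factor of the collecting duct, was at 337, 269 and 161 CPM. Of 14 listed genes past the minimum within the ureteric epithelium, 1 was at least 2-fold higher and 2 were lower, with a median of −0.24, equal within 0.01 to the −0.23 of all genes there. Of all 4108 genes there 2.36% were higher and 11.6% lower. Over all cells 2 of 10 listed genes, *Wnt11* among them, were at least 2-fold higher and none lower, with a median of 0.11. The nephron share was 40.9% (39.6 to 42.3) in wild type, 29.8% in the untreated mutant and 36.8% (34.7 to 39.0) in the treated mutant.

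Several genes of mitosis were lower, and genes of DNA replication lay within 2-fold. *Mki67*, the proliferation antigen, was at 374 CPM in wild type, 125 in the untreated mutant and 74.0 in the treated mutant, and its ratio lay between 0.196 and 0.214 in each of the 4 lineages. *Kif11*, a spindle motor, was at 99.0, 47.5 and 28.7 CPM. Of 27 mitosis genes, 21 passed the minimum and 10 were at least 2-fold lower, with a median of −0.82 (−0.39 in the untreated mutant). The share lower over all genes was 13.4%. *Cks2*, *Birc5* and *Cdc20* of the same list had log2 ratios of 0.18, −0.03 and 0.01. This count rested on the filter: without the upper limit of 6000 genes, which mostly removed barcodes of the treated library, 3 of 21 were 2-fold lower with a median of −0.16. With that limit in place, 5 of 21 were 2-fold lower than genes of like length. None of 20 S-phase genes reached 2-fold, with a median of 0.17. Of 36 DNA and histone modifiers, 32 passed and 11 were lower, among them *Tet2*, *Kmt2a* and *Kmt2d*, with a median of −0.89. Compared with genes of like length, none of these 32 was 2-fold lower. ENL partners and elongation factors gave 2 of 15 lower (*Aff4* and *Hexim1*, median −0.59), a share close to the 13.4% of all genes, with 1 of 15 lower against genes of like length and none with median-of-ratios scaling.

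Few genes of the stress and metabolic lists reached 2-fold. *Hspa1a* (chromosome 17, 34969190 to 34972156), an inducible heat shock chaperone, was at 26.1 CPM in wild type, 18.1 in the untreated mutant and 120 in the treated mutant, a ratio of 4.58 (4.25 to 4.94). It was higher in each lineage, from 2.15 (1.78 to 2.61) in endothelium to 7.24 (6.39 to 8.25) in the ureteric epithelium. *Hspa1b*, which encodes a chaperone of the same family, was at 20.5, 28.8 and 65.1 CPM. With *Hspe1*, which is uncertain because 73% of its 3′ end is found in another gene, these were the 3 of 13 heat shock genes at least 2-fold higher, and the other 10 were within 2-fold. No gene of the unfolded protein response (7 past the minimum), cholesterol synthesis (11), foreign compound response (8) or p53 target (5) lists reached 2-fold. Of 21 immediate early genes 4 were lower, led by *Fosb* at 118, 190 and 50.5 CPM, and none was higher, beside 13.4% of all genes lower. With median-of-ratios scaling 1 of 21 was higher and none lower, without the upper limit on genes 1 of 22 was higher and none lower, and against genes of like length 2 of 21 were lower. Without the 10% of cells with most UMIs none of 20 was past 2-fold. Hypoxia and glycolysis genes gave 2 higher (*Gapdh* and *Eno1*) and 1 lower (*Vegfa*) of 13. Both higher genes are uncertain, with 81.5% and 86.5% of their 3′ ends found in other genes, and without such genes none of 9 was higher. Subunits of the respiratory chain gave 7 of 75 higher and none lower, with a median of 0.27 (0.25 in the untreated mutant). The share higher over all genes was 2.71%. These subunit genes are short, with a median exonic length of 1718 bases against 4846 over all genes. Against genes of like length 5 of 75 were higher, with a median of 0.23. No immune gene passed the minimum, and the summed level of the 12 listed was 30 CPM in wild type and 15.4 CPM in the treated mutant. Of 2 erythroid genes and 5 haemoglobin genes past the minimum, none reached 2-fold. Of 8 Wilms tumour genes *Wt1* alone was lower, and of 11 imprinted protein genes *Cdkn1c* and *Igf2r* were. Nuclear and imprinted long non-coding RNAs gave 3 higher and 5 lower of 10. Of 13 mitochondrially encoded genes 2 were lower, with a median of −0.51. These counts of Wilms tumour, imprinted protein and mitochondrial genes were small and stood beside 13.4% of all genes lower. The 1 Wnt pathway readout past the minimum had a log2 ratio of −0.10, and 1 of 2 sex-linked genes was lower.

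**Figure D3:**
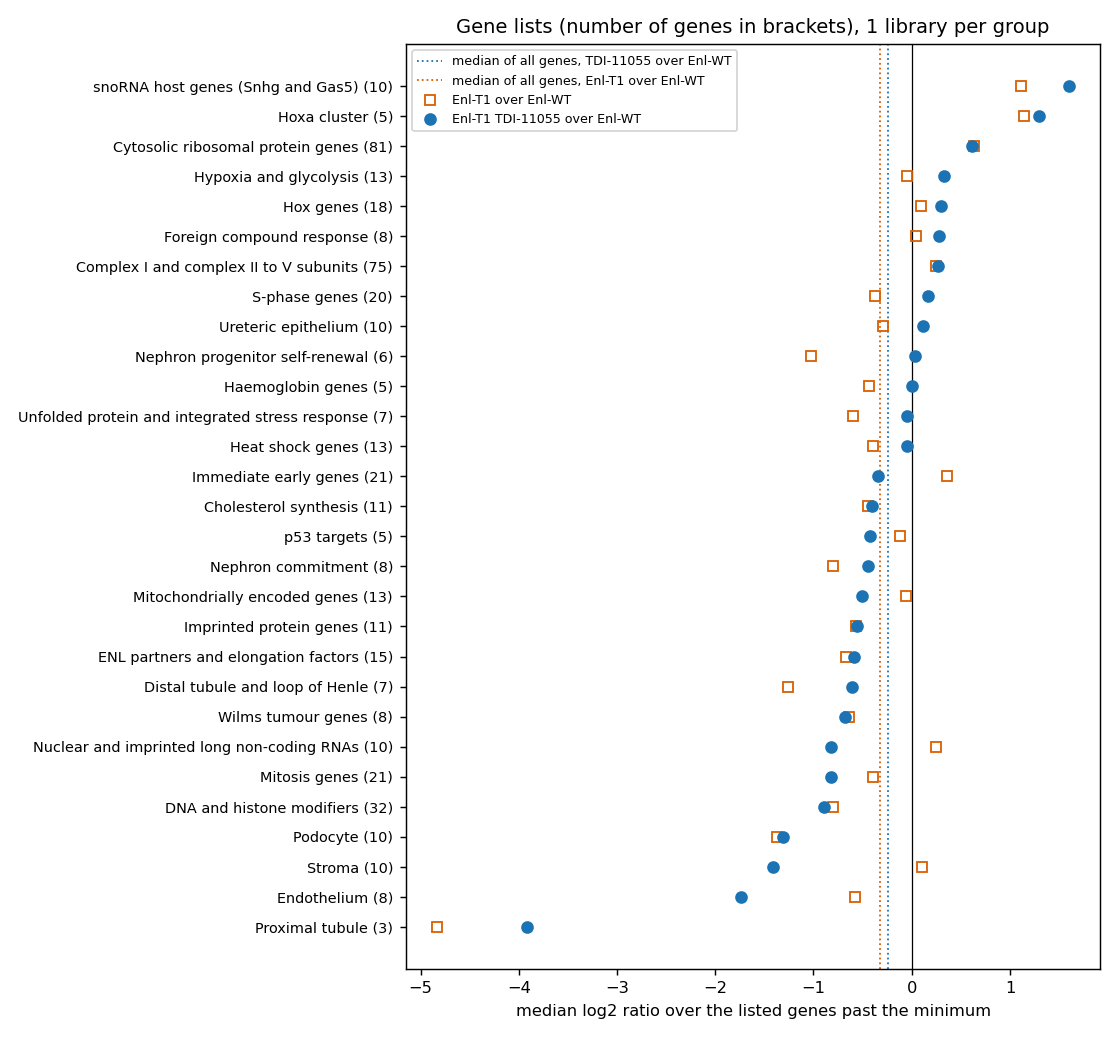
Median log2 ratio over the genes of each list that passed the minimum (number in brackets), for *Enl*-T1 TDI-11055 over *Enl*-WT (filled) and *Enl*-T1 over *Enl*-WT (open), which share the *Enl*-WT library. Dotted lines mark the medians of all genes, −0.24 and −0.32; the treated library lies lowest for proximal tubule (−3.92), endothelium (−1.74), stroma (−1.41) and podocyte (−1.31) genes.

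Most host genes of small nucleolar RNAs were higher. These transcripts are spliced and carry, in their introns, the small RNAs that guide modification of ribosomal RNA, and their spliced forms are usually degraded in step with translation. *Snhg16* was at 9.49 CPM in wild type, 17.2 in the untreated mutant and 50.1 in the treated mutant. *Snhg1* was at 188, 365 and 571 CPM and *Snhg12* at 62.0, 133 and 215 CPM. In each of these 3 the level was lowest in wild type and highest in the treated library. *Gas5* was at 433, 1056 and 1164 CPM. Of 18 such genes, a set chosen after its values were seen, 10 passed the minimum and 8 were at least 2-fold higher, with a median of 1.6 (1.11 in the untreated mutant). Over all genes 2.71% were higher to that degree. *Snhg3*, *Snhg15*, *Snhg16* and *Snhg18* passed the minimum in the treated library and not in wild type, so their direction was set by the minimum. *Snhg3* and *Snhg18* were at 1.68 and 1.69-fold. Against genes of like length 7 of 10 remained 2-fold higher. Within lineages 7 of 9 were higher in nephron, 8 of 9 in ureteric epithelium, 7 of 8 in stroma and 2 of 7 in endothelium. The shares higher over all genes there were 2.91%, 2.36%, 2.92% and 2.77% in the same order.

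Host genes of small nucleolar RNAs and ribosomal protein genes are known to begin transcription at a C within a run of pyrimidines, which couples them to growth signalling. The 30 bases around the annotated start, 15 on each side, are shown for 5 host genes that were higher, with both annotated starts of *Gas5*, and for *Hoxa5* and *Ren1*, which do not belong to that class (RefSeq, GRCm38.p6, 5′ to 3′ on the gene's strand; the 4 letters CTTT are in capitals where found).
Snhg12, chr4:132308663-132308692, plus strand: ggccgttctcagtcCTTTctcgcttcatcc
Snhg8, chr3:123508322-123508351, minus strand: gcaccgttcagaagtctCTTTggctgcgat
Snhg5, chr9:88522883-88522912, minus strand: gagctgcggtgaaccgggctcgttCTTTta
Snhg1, chr19:8723472-8723501, plus strand: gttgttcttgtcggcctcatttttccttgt
Gas5, upstream start, chr1:161034586-161034615, plus strand: agggggcgggcccgcgagctcgacagcccg
Gas5, downstream start, chr1:161035151-161035180, plus strand: agccgccatctcagcCTTTcggagctgtgc
Hoxa5, chr6:52204573-52204602, minus strand: cgccacccctcttgcctccacccaactccc
Ren1, chr1:133350659-133350688, plus strand: cagggggtctgggctacacagctcttagaa
*Snhg1* and the upstream start of *Gas5* held no CTTT, nor did *Snhg3* and *Snhg18*. Counting a gene once if any of its starts held them, the letters CTTT occurred on the gene's strand in this window in 6 of 9 matched host genes (66.7%), 22 of 61 matched ribosomal protein genes (36.1%), 402 of 3225 matched genes past the minimum (12.5%) and 3731 of all 27025 genes of the reference table (13.8%). On the other strand, read as AAAG, they occurred in none of the 9 host genes and in 13.4% of all genes. A match is a description of the letters and not of a working site.

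Counts assigned to ribosomal protein genes were higher in both mutant libraries. Of 81 past the minimum, 25 were at least 2-fold higher and none lower, with a median of 0.61 in the treated mutant and 0.63 in the untreated mutant. For 59 of the 81 (72.8%), 50% or more of the 3′ end is found in another gene. Without those, 5 of 22 were 2-fold higher in the treated mutant, with a median of 0.60. The share higher over all genes was 2.71%. The most extreme were *Rpl10*, at 19 CPM in wild type, 1331 in the untreated mutant and 1635 in the treated mutant, and *Rpl9*, at 50.1, 2564 and 2842 CPM. Both have processed copies elsewhere in the genome, and 98.2% of the 30-base words in the last 400 bases of *Rpl10* and 68.1% of those of *Rpl9* occurred in transcripts of another gene. *Pam16*, a mitochondrial import subunit with the highest ratio outside this class, was at 0.314, 66.1 and 70.0 CPM, and 97.0% of its words were shared. *Gm10076* (85.5%), *Gapdh* (81.5%) and *Gm43305* (74.7%) were in the same position. Reads of such genes can be assigned to a copy or discarded, so these ratios are uncertain. Among all genes 5.06% shared at least 50% of these words, among those 2-fold higher 37.4%, and among those 2-fold lower 0.933%. The *Hoxa* genes shared at most 1.35%, *Hspa1a* none and *Snhg16* 1.35%. Without genes of such shared sequence 69 genes were 2-fold higher and 532 lower.

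The ratio also moved with the length of the transcript. Over 4021 genes, Spearman's correlation between exonic length and log2 ratio was −0.69 across genes, which are not independent replicates, and it was −0.61 for the untreated mutant against wild type and −0.35 between the mutant libraries. The median log2 ratio was 0.32 in the shortest 403 genes (204 to 1597 bases) and −1.01 in the longest 402 (12224 to 123179 bases). Of those longest genes 209 were at least 2-fold lower, and of the shortest 9. When each gene was compared with the median of its length bin (10 bins of equal size), 122 genes were 2-fold higher and 92 lower, in place of 109 and 537. The 12 lowest and 12 highest genes and all 5 *Hoxa* genes were still past 2-fold. The part of length and of depth per cell in the smaller differences was not tested.

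**Figure D4:**
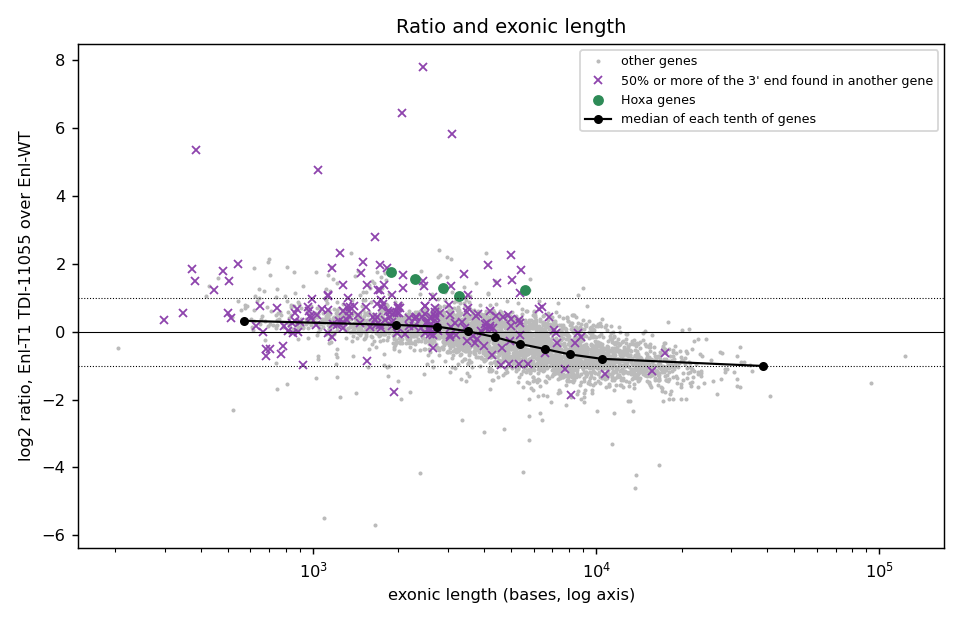
Log2 of the level in *Enl*-T1 TDI-11055 relative to *Enl*-WT (y axis) against exonic length in bases (x axis, log scale) for 4021 genes; crosses mark genes with 50% or more of their 3′ end found in another gene, green points the *Hoxa* genes, and black points the median of each of 10 length bins. The medians run from 0.32 in the shortest bin to −1.01 in the longest, and the *Hoxa* genes lie above them.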

How the data were processed

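Kidneys were dissociated, red blood cells were lysed and libraries were made with the 10x Genomics Chromium 3′ kit, per the labels. The deposited matrices hold raw UMI counts per gene and barcode, which the authors made with Cell Ranger 6.1.2 and build mm10 (submitters' processing notes). Each group is 1 library, so spread between replicates is unknown.

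From these counts, cells were filtered as stated, UMIs were summed per library and divided by the library total. Doublets were not called and free RNA was not corrected. Levels have exact Poisson intervals, shares exact Clopper-Pearson intervals and ratios an exact interval obtained from how their UMIs divided between libraries. Each library was clustered separately (2000 variable genes, 30 components, Leiden with leidenalg 0.10.2) and clusters took the lineage with most markers among their 10 leading genes (3 clusters with none there took the one whose 5 highest markers had the largest mean fold), so lineage names are rebuilt and clusters differ between libraries. Exonic length and shared 30-base words come from GENCODE M21. Python 3.11.15, scipy 1.17.1 and scikit-learn 1.9.0 were used.

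The genes named were the 12 highest and 12 lowest ratios (without sex-linked, haemoglobin, ribosomal protein and mitochondrial genes), the 2 highest and lowest of each of 29 lists, all *Hox* genes, *Mllt1* and *Wt1*. *Nes*, *Atp5k*, list members outside these and the host gene family were named after their values were seen, as were the counts of cells that held list genes (cells thinned to 2000 UMIs) and the *Hox* antisense list. Alternatives changed the scaling, filters, cells and fold. The members and lists were chosen with earlier results of these data known. Some genes that this rule names are not reported here. Named genes with at least 50% of these words shared are given with that share.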

Additional observations from a re-analysis of the deposited data

Results flagged for a closer look

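Barcodes outside the comparison carried a signal that differed between the libraries. Among barcodes that met the limits on genes (1000 to 6000) and the upper mitochondrial limit (10%), 739 of 2754 in *Enl*-T1 TDI-11055 (26.8%, 25.2 to 28.5) had a share under 1%, against 46 of 5233 in *Enl*-WT (0.879%, 0.644 to 1.17) and 120 of 4144 in *Enl*-T1 (2.90%). The 739 had a median of 5114 UMIs and 1725 genes, where kept cells of that library had 19824 and 4724. Their summed *Malat1* level was 3588 CPM against 11044 in kept cells. Ribosomal protein genes took 33.8% of their UMIs against 26.0%, and haemoglobin genes 1.19% against 0.172%. The self-renewal list summed to 708 CPM against 864, the podocyte list to 249 against 613 and the stroma list to 300 against 808. Ureteric epithelium and endothelium lists were lower too, at 922 against 2316 and 167 against 376. The commitment list went the other way, at 1105 CPM against 894. With these barcodes included, 683 genes were at least 2-fold lower than in *Enl*-WT in place of 537, and 114 higher in place of 109.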

How the results depend on the processing

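No paired analysis was possible because each group was 1 library. The count of genes at least 2-fold lower (537) was 251 with median-of-ratios scaling, 92 against genes of like length, 1345 with a minimum of 10 CPM, 193 with 50 CPM in both libraries, 1320 at 1.5-fold, and 351 without the upper limit on genes (added after seeing the data). The count of genes higher (109) was 259 at 1.5-fold and 69 without genes of shared 3′ sequence (also added later). The median of all genes (−0.24) was 0.00 with median-of-ratios scaling or against genes of like length, both by construction, −0.08 when the total left out mitochondrial, ribosomal protein and haemoglobin genes, −0.32 with a minimum of 10 CPM and −0.06 with 50 CPM in both libraries. The median of *Hox* genes (0.30) was 0.54 with median-of-ratios scaling, 0.40 without those genes in the total, 0.39 in cells where Y-linked transcripts but not *Xist* were detected, 0.17 with 50 CPM in both libraries and 0.43 without genes of shared sequence. Other alternatives kept these values within their counting interval or 1.5 times the count. The 12 highest and 12 lowest genes stayed past 2-fold under each alternative that changes their ratio. Of 1424 values of 143 named genes, 875 moved by more than their counting interval, and none past 2-fold changed sign. With 1 library per group, differences between embryos or preparations cannot be told apart from those between conditions.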

Other observations

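*Hbb-y*, an embryonic beta-like globin of primitive red cells, was at 121 CPM in wild type, 1.86 in the untreated mutant and 223 in the treated mutant. The adult globin *Hbb-bs* was at 1004, 744 and 638 CPM. Within the ureteric epithelium, which does not make globin, *Hbb-y* was at 122, 1.44 and 319 CPM. The untreated mutant library was thus the one that stood apart. The share of globin that was free RNA was not estimated.

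*Neat1*, a long nuclear RNA, was at 846 CPM in wild type, 404 in the untreated mutant and 215 in the treated mutant, and at 539, 47.5 and 93.2 CPM within nephron cells. *Npnt*, an extracellular matrix ligand of integrin, was at 272, 27.6 and 40.7 CPM within nephron cells, and at 584, 335 and 310 CPM within the ureteric epithelium, so that over all cells its ratio to wild type after treatment was 0.498 (0.483 to 0.514). *Meis2*, a partner of HOX proteins, was at 341, 615 and 567 CPM within nephron cells and at 716, 1276 and 973 CPM within stroma cells.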
